A study of Homo sapiens with 17 samples.

Results

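Numbered LINC RNAs are long noncoding RNAs named by a serial number, and 105 of them were expressed in IMR-90 fibroblasts before or after treatment with etoposide. They were chosen by symbol and by measured level, as the rows whose symbol is LINC followed by digits alone and whose level averaged at least 1 CPM (a gene's count scaled by the library's total, here the total over named genes) over the libraries of at least 1 group. That floor kept 105 of the 2263 numbered LINC rows in the deposited tables, which list 41040 named genes, and 1541 of the LINC rows had a count in some library. IMR-90 is a diploid line of fibroblasts from human fetal lung, so all libraries share a single cell line, and etoposide traps topoisomerase II on DNA and so causes double-strand breaks. Untreated cells formed week 0 (n = 5 libraries), while the other cells received 20 µM etoposide for 48 h and were harvested after growth without the drug at week 1 (day 7, n = 6) or week 4 (day 28, n = 6). The series was deposited as a study of biomarkers of senescence, the lasting arrest of proliferation that such DNA damage is known to bring on in fibroblasts. Untreated cells were collected at week 0 only, so treatment and time in culture cannot be told apart. The labels do not say that replicates were separate cultures, so a p-value reflects library-to-library spread only, and that spread may be technical.

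Long intergenic noncoding RNAs are transcripts that do not encode a known protein and lie mostly between coding genes. They are spliced and often polyadenylated like messenger RNAs, and are known to be less abundant and more restricted to particular cell types. A LINC number is a placeholder given to a gene with no name for its function, and only few of those below have a described role. Several have been studied in tumours. LINC00973 has been reported as induced by chemotherapy drugs in colon cancer cells, LINC01133 as a binder of the splicing factor SRSF6 in colorectal cancer, and LINC00632 as the locus from which the circular RNA CDR1as is made.

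The sequences around the annotated starts of 4 of these genes are shown. They were taken from a ranking by the largest difference between group means in log2 of CPM plus 1. The values were 2.97 for LINC00973, 2.13 for LINC00161, 1.63 for LINC02593 and 1.39 for LINC02035. Only RNAs with an entry in the RefSeq promoter table were ranked. Not all RNAs described below were ranked, so others may have differed more. Each sequence is a window of 300 bases, 250 before the start and 50 after it. All are printed 5′ to 3′ on the strand of the gene from build GRCh38.p14. They come from chr3:98914316-98914615 (plus strand) for LINC00973, chr21:28539068-28539367 (plus strand) for LINC00161, chr1:919643-919942 (minus strand) for LINC02593 and chr3:122886263-122886562 (plus strand) for LINC02035. Capitals mark matches on either strand and at any place in the window. The motifs are TATAAA (the letters of the TATA box), CCAAT (bound by NF-Y), GGGCGG (bound by SP1 factors) and TGANTCA (bound by AP-1 factors). No run of capitals is longer than 1 motif. LINC00973 has 4 windows in the table, of which the first is shown, and the start that these cells use is not known.
LINC00973: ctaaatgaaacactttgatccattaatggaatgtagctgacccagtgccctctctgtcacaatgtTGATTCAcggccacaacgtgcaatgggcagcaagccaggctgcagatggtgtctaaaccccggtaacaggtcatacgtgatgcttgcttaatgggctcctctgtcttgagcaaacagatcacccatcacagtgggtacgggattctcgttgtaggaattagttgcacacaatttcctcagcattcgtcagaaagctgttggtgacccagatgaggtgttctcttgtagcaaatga
LINC00161: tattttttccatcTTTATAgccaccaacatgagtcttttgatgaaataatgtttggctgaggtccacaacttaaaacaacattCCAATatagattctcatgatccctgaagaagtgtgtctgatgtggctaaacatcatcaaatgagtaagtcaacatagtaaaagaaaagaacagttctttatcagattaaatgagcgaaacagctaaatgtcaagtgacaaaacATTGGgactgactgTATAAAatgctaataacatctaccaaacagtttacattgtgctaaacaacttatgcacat
LINC02593: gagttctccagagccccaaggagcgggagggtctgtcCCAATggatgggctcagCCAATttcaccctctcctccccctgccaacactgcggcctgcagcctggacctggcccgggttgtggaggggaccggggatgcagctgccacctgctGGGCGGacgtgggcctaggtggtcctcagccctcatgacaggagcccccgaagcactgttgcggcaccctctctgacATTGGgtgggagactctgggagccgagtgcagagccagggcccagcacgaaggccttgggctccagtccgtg
LINC02035: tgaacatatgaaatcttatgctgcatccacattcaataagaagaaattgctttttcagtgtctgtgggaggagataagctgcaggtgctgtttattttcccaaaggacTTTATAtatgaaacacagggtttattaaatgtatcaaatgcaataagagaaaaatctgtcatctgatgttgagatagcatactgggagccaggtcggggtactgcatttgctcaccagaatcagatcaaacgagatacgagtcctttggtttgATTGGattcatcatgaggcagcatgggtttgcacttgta
Among these 4, a TGANTCA match was found for LINC00973, and TATAAA matches for LINC00161 and LINC02035. The window of LINC02593 held CCAAT and GGGCGG matches and had the highest GC content of the 4, at 66.7%, against 47.7% for LINC00973, 39.3% for LINC02035 and 33.3% for LINC00161.

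Over all of these RNAs, 78 matched the promoter table, with 93 windows. CCAAT was found in 47.3% of those windows, against 34.6% of all 35116 windows of the table, and TGANTCA in 16.1%, against 7.71%. GGGCGG was found in 48.4% of the LINC windows and 45.0% of all windows, TATAAA in 14.0% and 11.5%, TTTGAA in 14.0% and 15.2%, and CACGTG in 5.38% and 7.26%. The p53 half-site was found in 7.53% and 6.63%, and the NF-kB site in 3.23% and 5.91%, each searched on both strands. Median GC content was 55.7% in the LINC windows and 58.7% in all windows. These shares describe letters in a window and were not tested.

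The libraries held 77.2 to 102.8 M counts on named genes. All 12 fibroblast markers examined exceeded 1 CPM in each group, and their sum was 30561 to 36796, 43952 to 46959 and 58994 to 62062 CPM over the libraries of weeks 0, 1 and 4. The 8 leukocyte markers summed to at most 1.08 CPM in any library, and none reached 1 CPM in a group. Epithelial markers, of which 5 of 10 were at 1 CPM or more, summed to 66.9 to 75.9, 253 to 293 and 218 to 243 CPM at weeks 0, 1 and 4, and the part of these changes in the LINC results was not tested. Smooth muscle and pericyte markers summed to 404 to 474, 589 to 616 and 576 to 604 CPM at these times, endothelial markers to 61.8 to 95.7 CPM and neural markers to 1.36 to 4.47 CPM over all libraries, and no marker of any list was at 0 throughout. In bulk RNA, fewer cells of a kind and less RNA per cell cannot be told apart. Week 0 replicates 1 and 4 stood apart from the rest, with 5.95% and 5.18% of their counts on ribosomal protein genes, against 3.17% to 3.84% in the other week 0 libraries. Over all genes, chi-square per gene was 91.1 to 209 between either of them and one of the other 3, against 31.7 between the pair and at most 22.9 among those 3.

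Most of these RNAs were scarce. Levels are given below as CPM on library sizes scaled by TMM (trimmed mean of M values, which sets the libraries to a common scale), whereas the floor was applied to plain CPM. The median mean level was 1.73 CPM, against 11 CPM over all 16891 tested genes, and 83 of the 105 averaged under 5 CPM. Just outside the floor were LINC00526, LINC01583 and LINC00513, with highest plain group means of 0.955, 0.974 and 0.991 CPM, and just inside were LINC01204, LINC02614 and LINC02298, with 1.01, 1.03 and 1.03 CPM. A group of 65 were at the floor in all 3 groups, 21 in 2 groups and 19 in a single group.

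A few RNAs held most of the counts. LINC00205 accounted for 11.1% and LINC02693 for 10.9% of the counts on these genes, and the top 11 together for 51.5%. Per kb of deposited gene length, LINC00205 was again highest, at 7.06 CPM per kb, followed by LINC01605 at 4.82 CPM per kb. Gene lengths ran from 870 to 33198 bases with a median of 4950, close to the 4896 of all tested genes. Over the 65 RNAs at the floor throughout, the coefficient of variation between replicates had a median of 13.8%, 9.99% and 10.6% and a highest value of 34.6%, 22.8% and 26.4% at weeks 0, 1 and 4.

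**Figure D1:**
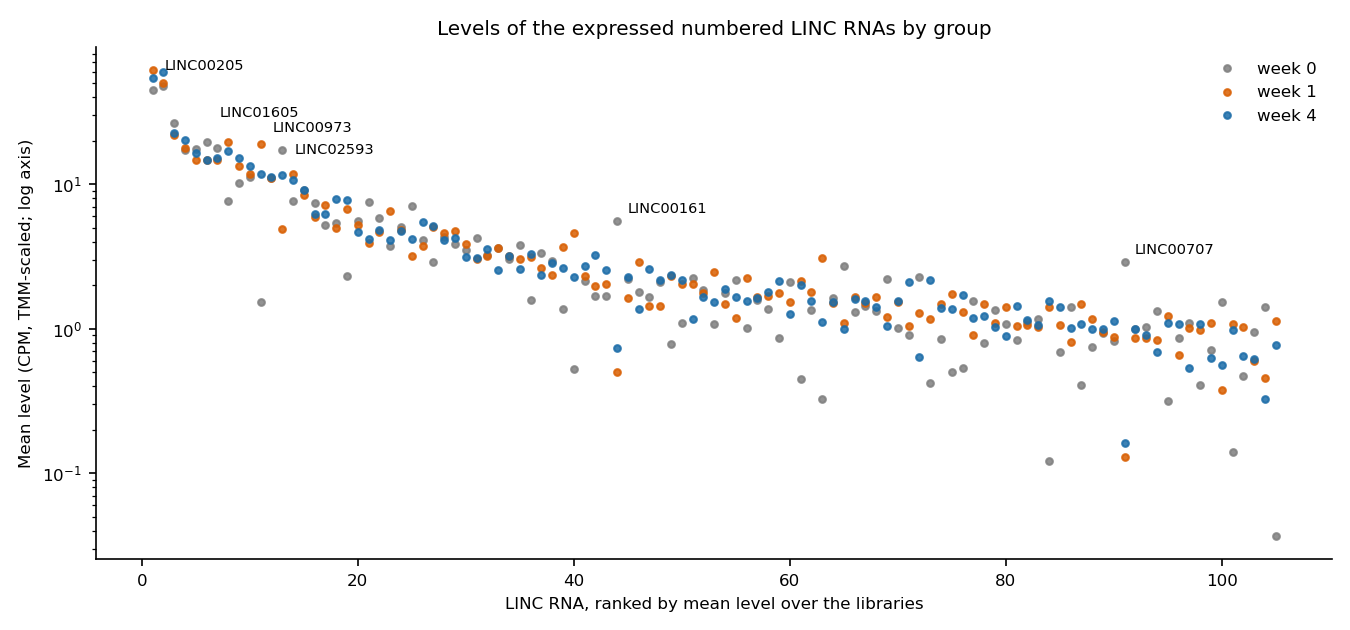
Mean level of each of the 105 numbered LINC RNAs by group (TMM-scaled CPM, log axis), ranked by the mean over libraries; each point is a group mean of 5 libraries (week 0) or 6 (weeks 1 and 4). LINC00205 and LINC02693 lead the ranking, and for most ranks the 3 groups lie close together, with LINC00973, LINC00161 and LINC00707 among those whose groups lie apart.

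LINC00205 had 41.7, 46.5, 38.0, 48.4 and 48.3 CPM in the week 0 libraries (replicates 1, 3, 4, 5 and 6), 57.9 to 64.1 CPM at week 1 (median 61.8) and 52.6 to 55.8 CPM at week 4 (median 54.2). All treated libraries were above all week 0 libraries, and the lowest values were those of week 0 replicates 1 and 4. Its log2 fold change was 0.46 ± 0.05 (SE) at week 1 (adjusted p = 6.03e-08) and 0.28 ± 0.05 at week 4 (adjusted p = 8.18e-05), each against week 0. Without scaling factors the week 4 change was 0.09, with an adjusted p of 0.179, so that call rests on the scaling.

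LINC02693 was highest at week 4. Its means at weeks 0, 1 and 4 were 47.5 ± 5.73, 50 ± 1.07 and 59.3 ± 1.59 CPM (SD, n = 5, 6 and 6). The difference between week 1 and week 0 was not called (log2 0.07 ± 0.06, adjusted p = 0.274), while week 4 exceeded week 1 by 0.24 ± 0.06 (adjusted p = 0.000989) with no overlap. Week 4 exceeded week 0 by 0.32 ± 0.06 (adjusted p = 3.91e-05), a call that was lost without scaling factors (adjusted p = 0.0603).

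Of the other 6 among the 8 most abundant RNAs, all but LINC01605 moved by less than 1.5-fold. LINC00667 averaged 26.3, 22.0 and 22.6 CPM at weeks 0, 1 and 4, LINC00963 averaged 19.5, 14.7 and 14.8 CPM, and LINC01278 averaged 17.9, 14.7 and 15.2 CPM. All 3 fell in both treated groups with no overlap with week 0, at log2 fold changes between -0.41 and -0.22 (largest adjusted p = 0.00101). LINC00641 was lower at week 1 (14.7 against 17.4 CPM, log2 -0.24 ± 0.07, adjusted p = 0.00411) and was not called at week 4 (16.5 CPM, log2 -0.07 ± 0.07, adjusted p = 0.355). LINC01128 was not called at week 1 (log2 0.05 ± 0.06, adjusted p = 0.469) and was higher at week 4 than at week 0 (20.3 against 17.1 CPM, log2 0.25 ± 0.06, adjusted p = 0.00162), which was lost without scaling factors (adjusted p = 0.472).

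LINC00973 showed the largest rise among RNAs at the floor in both groups compared. It stood at 1.62, 1.29, 1.75, 1.44 and 1.56 CPM in the week 0 libraries, at 17.4 to 20.4 CPM (median 18.6) at week 1 and at 11.1 to 12.4 CPM (median 11.7) at week 4. No library of a group reached the range of another group. The week 1 mean was 12.3-fold and the week 4 mean 7.68-fold the week 0 mean, at log2 fold changes of 3.62 ± 0.08 (adjusted p = 8.77e-22) and 2.94 ± 0.08 (adjusted p = 4e-20). From week 1 on the level receded, with week 4 lower than week 1 by a log2 fold change of -0.68 ± 0.07 (adjusted p = 1.02e-08).

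LINC01605, an RNA of several kinds of carcinoma in earlier reports, also rose, with means of 7.70 ± 1.44, 19.7 ± 0.818 and 16.9 ± 1.29 CPM at weeks 0, 1 and 4 (SD, n = 5, 6 and 6). Its week 0 libraries held 9.0, 7.33, 9.39, 6.68 and 6.09 CPM, and the lowest treated library 15.0 CPM. The log2 fold changes were 1.36 ± 0.09 at week 1 and 1.13 ± 0.09 at week 4 (adjusted p = 1.53e-12 and 5.25e-11). Week 4 was lower than week 1 by -0.23 ± 0.08 (adjusted p = 0.0331), with overlap, and this call was lost when any of week 1 replicates 1, 3 and 4 or week 4 replicates 3, 5 and 6 was left out (adjusted p of 0.0504 to 0.0832).

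LINC02035 was at 1.5, 2.73, 2.09, 2.61 and 2.69 CPM in the week 0 libraries, at 5.80 to 7.56 CPM (median 6.81) at week 1 and at 6.49 to 8.16 CPM (median 7.91) at week 4. The lowest treated library was above the highest week 0 library, and the treated groups overlapped. Its log2 fold change was 1.52 ± 0.12 at week 1 (adjusted p = 5.82e-11) and 1.73 ± 0.12 at week 4 (adjusted p = 6.16e-12), and week 4 against week 1 was not called (0.21 ± 0.11, adjusted p = 0.143).

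LINC01588 was at 1.51, 1.51, 1.21, 1.47 and 1.13 CPM in the week 0 libraries, and at 3.04 to 4.14 CPM (median 3.76) at week 1 and 2.19 to 3.43 CPM (median 2.51) at week 4. It rose at both times with no overlap (log2 1.42 ± 0.13 and 0.94 ± 0.13, adjusted p = 1.16e-09 and 1.14e-06) and was lower at week 4 than at week 1 (-0.48 ± 0.12, adjusted p = 0.00286), where the groups overlapped. LINC00968 and LINC02709 followed the same course at lower levels. LINC00968 averaged 1.08, 2.48 and 1.53 CPM and LINC02709 1.01, 2.25 and 1.54 CPM at weeks 0, 1 and 4, and both were called higher in each comparison with week 0 and lower at week 4 than at week 1 (largest adjusted p = 0.00985).

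LINC02861, which RefSeq lists under the name TRIDDENT, and LINC00900 rose and stayed up. LINC02861 averaged 1.59, 3.15 and 3.31 CPM at weeks 0, 1 and 4, with log2 fold changes of 0.99 ± 0.11 at week 1 and 1.06 ± 0.11 at week 4 against week 0 (adjusted p = 2.94e-08 and 9.35e-09). LINC00900 averaged 1.10, 2.02 and 2.17 CPM, with log2 fold changes of 0.88 ± 0.14 and 0.98 ± 0.14 (adjusted p = 8.38e-06 and 1.75e-06). Week 4 against week 1 was not called for either (adjusted p = 0.627 and 0.587).

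LINC02593 fell most at week 1 among the RNAs at the floor in both groups, and came partly back. It was at 20.0, 15.0, 12.7, 18 and 20.2 CPM in the week 0 libraries, at 3.81 to 6.04 CPM (median 4.82) at week 1 and at 10.2 to 12.6 CPM (median 11.9) at week 4. The groups did not overlap, although the highest week 4 library lay just under the lowest of week 0, replicate 4. The log2 fold change was -1.82 ± 0.12 at week 1 (adjusted p = 2.56e-12) and -0.57 ± 0.11 at week 4 (adjusted p = 0.000117), each against week 0. Between week 4 and week 1 it was 1.25 ± 0.11 (adjusted p = 7.94e-09), the largest rise of that comparison among RNAs at the floor at both times.

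**Figure D2:**
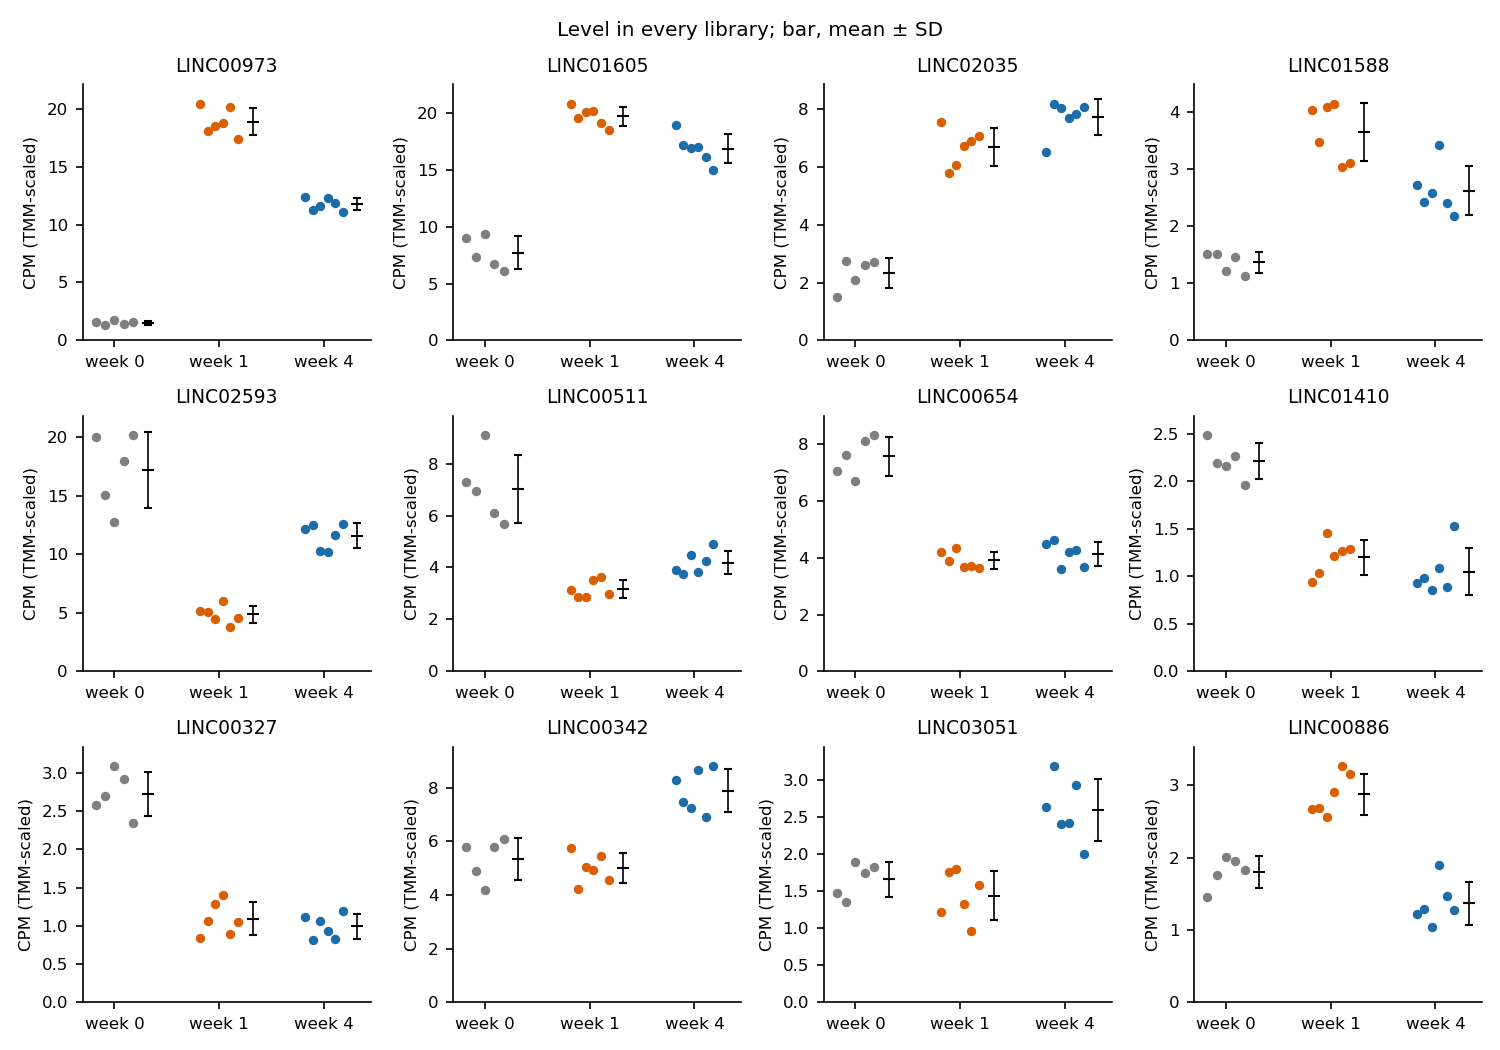
Level of 12 numbered LINC RNAs in every library by group (TMM-scaled CPM, linear axes from 0); points are libraries and the bar beside them is the mean ± SD (n = 5 at week 0, 6 at weeks 1 and 4). LINC00973, LINC01605, LINC02035 and LINC01588 sit higher in all treated libraries than at week 0, LINC02593, LINC00511, LINC00654, LINC01410 and LINC00327 lower, LINC00342 and LINC03051 stand highest at week 4 and LINC00886 at week 1.

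LINC00511, an RNA described in breast and other carcinomas, and LINC00654 fell at both times. LINC00511 was at 7.30, 6.93, 9.09, 6.09 and 5.69 CPM in the week 0 libraries, at 2.87 to 3.65 CPM (median 3.04) at week 1 and at 3.75 to 4.89 CPM (median 4.07) at week 4. The 3 groups did not overlap. Its log2 fold changes were -1.15 ± 0.11 at week 1 and -0.75 ± 0.11 at week 4 against week 0 (adjusted p = 2.11e-09 and 2.16e-06), and 0.40 ± 0.11 for week 4 against week 1 (adjusted p = 0.00456). LINC00654 averaged 7.57 ± 0.687, 3.91 ± 0.307 and 4.14 ± 0.421 CPM at weeks 0, 1 and 4 (SD, n = 5, 6 and 6). Its log2 fold changes against week 0 were -0.95 ± 0.09 and -0.87 ± 0.09 (adjusted p = 1.1e-09 and 5.57e-09), with no overlap, and week 4 against week 1 was not called (adjusted p = 0.506).

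LINC01410 was at 2.48, 2.19, 2.16, 2.26 and 1.96 CPM in the week 0 libraries and did not exceed 1.53 CPM in a treated library. Its log2 fold changes were -0.88 ± 0.15 at week 1 and -1.08 ± 0.15 at week 4 (adjusted p = 1.74e-05 and 1.14e-06). LINC01081, an RNA gene upstream of the lung mesenchyme factor FOXF1, averaged 2.19, 1.20 and 1.66 CPM at weeks 0, 1 and 4. It was lower at week 1 with no overlap (log2 -0.87 ± 0.15, adjusted p = 1.95e-05) and lower at week 4 with overlap (-0.39 ± 0.15, adjusted p = 0.023), both against week 0. LINC00327 averaged 1.09 ± 0.218 CPM at week 1 and 2.73 ± 0.289 CPM at week 0, without overlap (log2 -1.32 ± 0.15, adjusted p = 2.43e-08). LINC01547 was lower at both times (2.09, 1.52 and 1.26 CPM at weeks 0, 1 and 4), with log2 fold changes of -0.45 ± 0.15 and -0.73 ± 0.15 against week 0 (adjusted p = 0.0093 and 0.000134).

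Counted over the 69 RNAs at the floor at both week 1 and week 0, 19 were higher and 20 lower at week 1, and 30 were not called, at an adjusted p under 0.05 from edgeR's quasi-likelihood test over all 16891 genes. Those are 27.5% and 29.0%, against 34.5% and 40.1% of all genes at the same floor, so neither share exceeds the background. Called in either direction were 56.5% of the LINC RNAs, against 74.6% of those genes. The median log2 fold change was 0.00, against -0.05 over all genes at the same floor and -0.02 over all tested genes. Calls with no overlap between the groups numbered 27, or 39.1%, against 57.4% of all genes at the floor. Beyond the 6 largest changes each way, the other 13 rises lay between 0.29 and 0.99 and the other 14 falls between -0.83 and -0.24. The split depended on the scaling, with 16 higher and 28 lower without scaling factors and 23 higher and 16 lower with upper-quartile factors. Over all tested genes it moved the same way, from 5557 higher and 5692 lower to 4335 and 7394 and to 6184 and 5055.

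At week 4 against week 0, 66 RNAs could be counted. Of these, 23 were higher and 18 lower, and 25 were not called. The shares of 34.8% and 27.3% stood beside backgrounds of 35% and 40.5%, and 62.1% were called in either direction, against 75.5% of all genes at the floor. The median log2 fold change was 0.06, with -0.04 over all genes at the same floor and 0.00 over all tested genes. Without scaling factors the split was 15 higher and 26 lower, and that of all tested genes went from 5706 and 5666 to 4196 and 7623. Without week 0 replicates 1 and 4 the calls were 22 higher and 17 lower at week 1. At week 4 they were 21 higher and 15 lower. All tested genes then had 5691 higher and 5584 lower calls at week 1, and 5736 and 5517 at week 4. None of the 55 named RNA and comparison pairs re-examined lost its call, and the other calls given here were not re-examined. The comparisons of weeks 1 and 4 with week 0 share the week 0 libraries.

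Antisense RNAs, the transcripts whose symbol ends in AS and a number, served as another class of noncoding RNA with the same floor. Of 181 at the floor at week 1 and week 0, 52 were called higher and 60 lower, and of 177 at week 4 and week 0, 52 higher and 55 lower. In either direction 61.9% and 60.5% were called, against 74.6% and 75.5% of all genes at the floor. The differences between these classes were not tested.

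The floor in both groups leaves out the RNAs that were under 1 CPM in 1 of them, some by little, so these counts are not about all 105. Their median level stands under that of all tested genes, as given above, and its part in the shares was not tested.

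**Figure D3:**
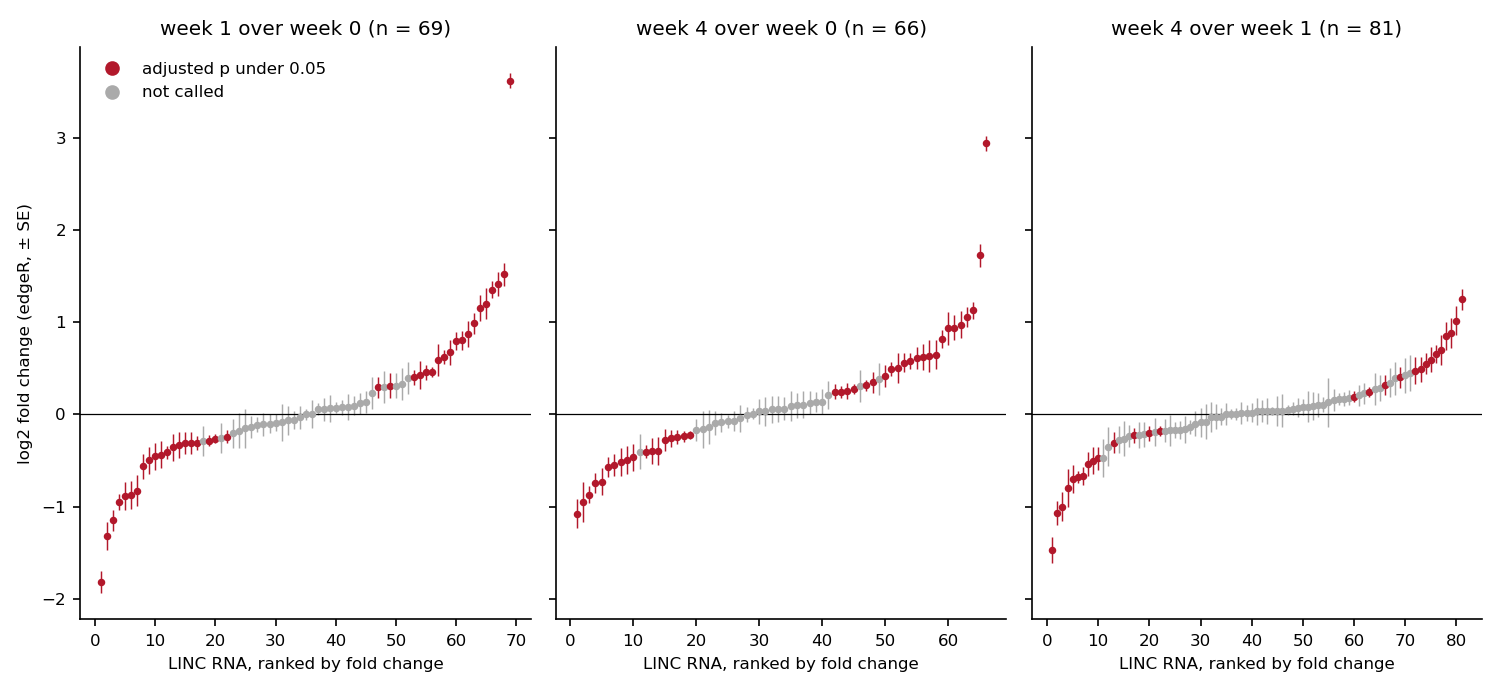
Log2 fold changes of the numbered LINC RNAs at 1 CPM or more in both groups compared, ranked within each comparison (points, edgeR estimate; bars, SE; n = 69, 66 and 81 RNAs); red marks an adjusted p under 0.05. LINC00973 is the highest point of both comparisons with week 0, and most RNAs of week 4 against week 1 are grey, with 53 of 81 not called.

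Between the treated times fewer changes were called. Of 81 RNAs at the floor at both week 4 and week 1, 14 were higher and 14 lower at week 4 and 53 were not called. This split of the LINC RNAs was the same under RLE, upper-quartile and no scaling. That of all tested genes went from 3667 higher and 3110 lower to 3265 and 3636 without scaling factors. The shares of the LINC RNAs were 17.3% each way, against 25.4% and 22.9% of all genes at the floor. In either direction they were 34.6%, against 48.4%. Calls without overlap numbered 16, or 19.8%, against 36.3%. With week 0 replicates 1 and 4 left out, which enter only through the filter, the scaling and the shared estimate of spread, 22 were higher and 15 lower. Calls among all tested genes grew too, from 3667 higher and 3110 lower to 4332 and 3964.

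LINC00342 was higher at week 4 than at either earlier time. It was at 5.79, 4.91, 4.2, 5.79 and 6.08 CPM in the week 0 libraries, at 4.24 to 5.74 CPM (median 5.00) at week 1 and at 6.92 to 8.81 CPM (median 7.88) at week 4. All week 4 libraries were above all others. Its log2 fold change was 0.66 ± 0.10 against week 1 and 0.56 ± 0.10 against week 0 (adjusted p = 6.8e-06 and 3.56e-05). LINC03051 had the same course, with means of 1.66, 1.44 and 2.6 CPM at weeks 0, 1 and 4 and a log2 fold change of 0.85 ± 0.15 at week 4 against week 1 (adjusted p = 6.67e-05). LINC00839, at 1.69, 1.98 and 3.23 CPM, was called higher at week 4 against week 1 (0.70 ± 0.16, adjusted p = 0.00136) with overlap.

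LINC01503 and LINC00519 were also higher at week 4 than at week 1. LINC01503 averaged 2.10 ± 0.225 CPM at week 4 and 1.04 ± 0.192 CPM at week 1 (log2 1.02 ± 0.16, adjusted p = 1.39e-05), and LINC00519 2.16 ± 0.174 and 1.17 ± 0.14 CPM (log2 0.88 ± 0.17, adjusted p = 0.000132), both without overlap. At week 0 they were under the floor, at 0.907 and 0.422 CPM. LINC00632, the CDR1as locus, averaged 4.12, 3.76 and 5.51 CPM at weeks 0, 1 and 4 and was higher at week 4 than at week 1 (log2 0.55 ± 0.11, adjusted p = 0.000391). The rise over week 0 (0.42 ± 0.12, adjusted p = 0.00353) was lost without scaling factors (adjusted p = 0.0977).

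LINC00886 peaked at week 1 and ended under its starting level. It was at 1.46, 1.76, 2.01, 1.96 and 1.83 CPM in the week 0 libraries, at 2.56 to 3.27 CPM (median 2.80) at week 1 and at 1.05 to 1.90 CPM (median 1.29) at week 4. Week 1 was above all other libraries, while week 4 and week 0 overlapped. The log2 fold change was 0.68 ± 0.14 at week 1 (adjusted p = 0.000122) and -0.40 ± 0.14 at week 4 (adjusted p = 0.0148) against week 0, and -1.07 ± 0.13 between week 4 and week 1 (adjusted p = 5.08e-07). LINC00472, a large gene with overlapping libraries throughout, averaged 2.26, 2.04 and 1.17 CPM and was lower at week 4 than at week 1 (-0.80 ± 0.21, adjusted p = 0.00349) and than at week 0 (-0.95 ± 0.21, adjusted p = 0.000473).

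LINC00941, described as a regulator of keratinocyte differentiation, did not pass the test in any comparison, with means of 9.10, 8.43 and 9.08 CPM and adjusted p-values of 0.23 at week 1 and 0.975 at week 4, each against week 0, and of 0.285 between the treated times. LINC01133 averaged 3.51, 3.86 and 3.12 CPM at weeks 0, 1 and 4. It was called lower at week 4 than at week 1 (-0.31 ± 0.11, adjusted p = 0.0365), a call lost when week 1 replicate 1, 2 or 4 or week 4 replicate 1, 3 or 5 was left out (adjusted p of 0.0562 to 0.0958), and was not called against week 0.

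The 40 RNAs at the floor in only some groups are described without a test against a group under the floor. Their choice fixes that direction on plain CPM, though not on the scaled CPM given here. LINC02614 and LINC00997, at the floor at week 0 only, had scaled means of 0.939 and 0.991 CPM at week 0. At week 4 these were slightly higher, at 0.999 and 1.00 CPM. A set of 16 reached the floor at weeks 1 and 4 but not week 0, 5 at week 1 only and 3 at week 4 only. At week 0 only there were 11, at weeks 0 and 1 there were 4, and LINC01943 reached it at weeks 0 and 4.

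Of those at the floor at week 0 only, LINC00161 and LINC00707 had the highest levels at week 0. LINC00161 was at 8.34, 5.05, 6.25, 4.29 and 3.78 CPM in the week 0 libraries, at 0.416 to 0.680 CPM (median 0.453) at week 1 and at 0.461 to 1.11 CPM (median 0.714) at week 4. Its week 0 mean was 11.1-fold the week 1 mean and 7.49-fold the week 4 mean, and its 2 highest libraries were week 0 replicates 1 and 4. LINC00707 was at 2.64, 2.9, 2.66, 3.24 and 2.94 CPM in the week 0 libraries, and did not exceed 0.200 CPM in a week 1 library or 0.294 CPM in a week 4 library. Its week 0 mean was 22.1-fold the week 1 mean and 17.7-fold the week 4 mean. The other RNAs at the floor at week 0 only had means closer to it, and the median of the 11 was 1.32 CPM at week 0.

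LINC00702 averaged 2.29, 1.29 and 0.637 CPM at weeks 0, 1 and 4, and was under the floor at week 4. Between week 1 and week 0, where it was at the floor in both, it fell with no overlap (log2 -0.83 ± 0.17, adjusted p = 0.000117). LINC00327 was at 0.993 ± 0.160 CPM at week 4, just under the floor. LINC01116, an RNA of glioma and other tumours, averaged 1.32, 0.835 and 0.687 CPM and reached the floor at week 0 only.

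Of those under the floor before treatment, LINC01111 and LINC00452 had the highest levels at week 1. LINC01111 was at 0.650, 0.511, 0.798, 0.230 and 0.428 CPM in the week 0 libraries, at 4.13 to 5.18 CPM (median 4.61) at week 1 and at 1.99 to 2.85 CPM (median 2.26) at week 4. The groups did not overlap, and the week 1 mean was 8.78-fold the week 0 mean. LINC00452 was at 0.241, 0.330, 0.289, 0.326 and 0.459 CPM in the week 0 libraries, at 2.86 to 3.48 CPM (median 3.02) at week 1 and at 0.850 to 1.46 CPM (median 1.09) at week 4, and its week 1 mean was 9.32-fold the week 0 mean. Both were at the floor at weeks 1 and 4, and both fell between them, with log2 fold changes of -1.0 ± 0.16 for LINC01111 (adjusted p = 1.68e-05) and -1.47 ± 0.14 for LINC00452 (adjusted p = 9.77e-09) at week 4 against week 1. With LINC00886, these were the largest falls of that comparison among RNAs at the floor at both times.

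LINC01145 and LINC01293 were reached after treatment and then kept their level. LINC01145 averaged 0.780, 2.31 and 2.34 CPM and LINC01293 0.449, 2.14 and 2.0 CPM at weeks 0, 1 and 4. Neither was called between week 4 and week 1 (adjusted p = 0.908 and 0.598). RefSeq lists the symbol LINC01293 as a synonym of LINC01291, which the tables hold as a row of its own, so reads of the pair may have been split between rows.

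**Figure D4:**
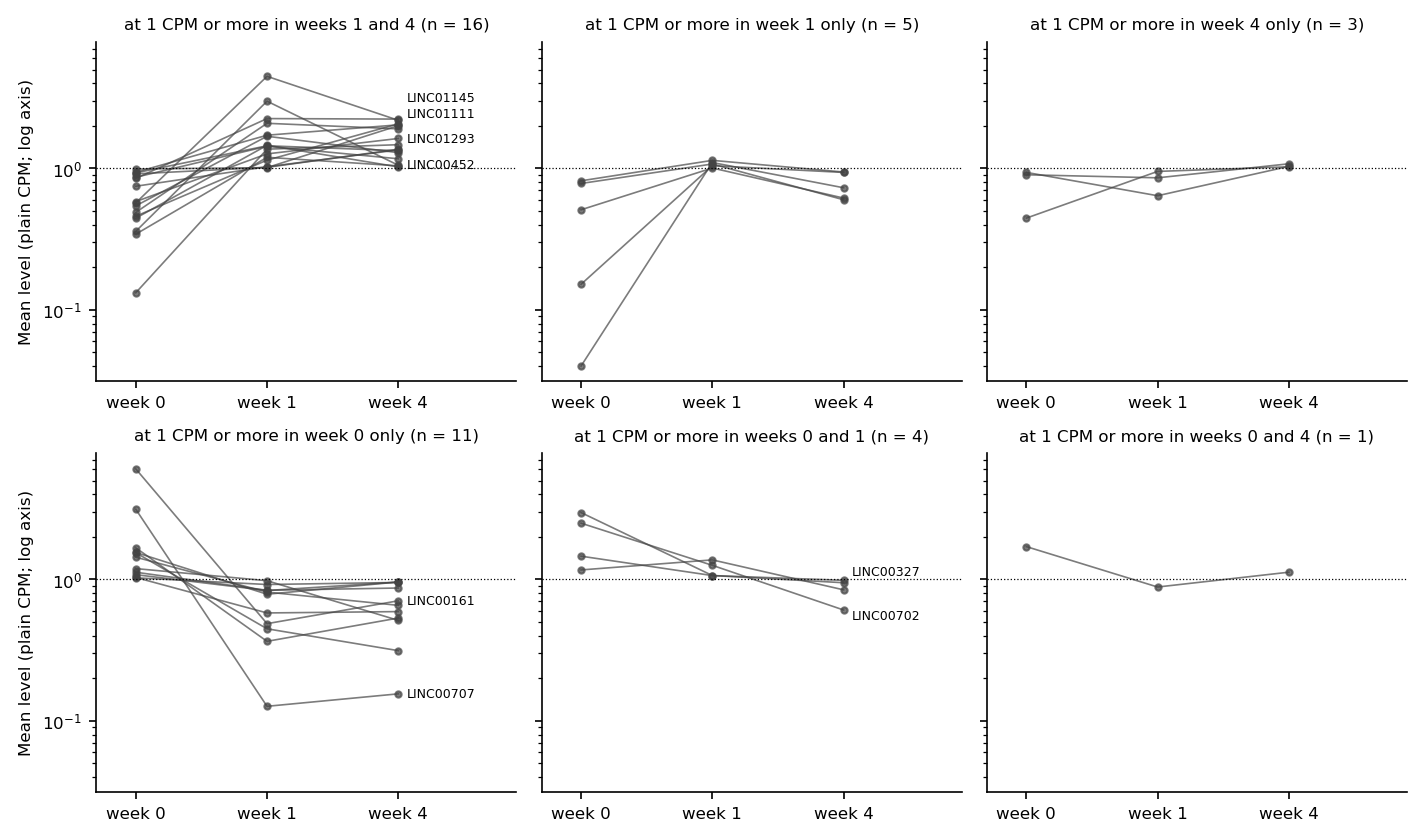
Mean level by group of the 40 numbered LINC RNAs that reached 1 CPM (dotted line) in only 1 or 2 groups, in a panel for each set of groups (plain CPM on named genes, log axis; a line is 1 RNA). The 16 RNAs at the floor at weeks 1 and 4 lie under the line at week 0, and LINC00161 and LINC00707 show the largest drop among the 11 at the floor at week 0 only, as the choice of the sets requires in direction.

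All numbered LINC rows together, with no floor, held 0.0559% ± 0.00200, 0.0559% ± 0.00128 and 0.0548% ± 0.00138 of the counts at weeks 0, 1 and 4 (SD, n = 5, 6 and 6). Exact two-sided permutation tests gave p = 0.968 for week 1 against week 0, 0.277 for week 4 against week 0 and 0.175 for week 4 against week 1, where the smallest possible p is 0.0022, and p adjusted over the 3 was 0.968, 0.416 and 0.416. On TMM-scaled library sizes the shares were 0.0513%, 0.0573% and 0.0574% at weeks 0, 1 and 4, with adjusted exact p = 0.0032 for both comparisons with week 0. The direction against week 0 thus depends on the scaling. For the same reason, unscaled log2 fold changes of all tested genes had a median of -0.18 at week 1 and -0.19 at week 4 against week 0.

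The nearest coding gene of each RNA was looked up by name in the RefSeq gene table (GRCh38.p14), since the build behind the counts is not certain. All but 2 of the 105 RNAs had an entry, and 6 overlapped a coding gene. Nearest does not mean close: besides the 6 that overlap, the nearest coding gene in that table lay within 10 kb for 25 RNAs. It lay over 100 kb away for 26, among them FOXF1 from LINC01081. For 58 RNAs at the floor in both groups with a tested neighbour, Pearson's r between the log2 fold changes at week 1 against week 0 was 0.36 and Spearman's rho 0.36, and for 54 at week 4 against week 0 they were 0.36 and 0.39. These are correlations across genes measured in the same libraries and carry no test. The floor was applied to the LINC RNA and not to its neighbour, so some neighbours were scarce. SLAMF9, for example, averaged 0.400, 0.0406 and 0.0784 CPM at weeks 0, 1 and 4. A coding gene nearest to several RNAs, such as SAMD11, entered with each of them. Whether called or not, the direction was the same in 34 of the 58 pairs at week 1 and 34 of the 54 at week 4. Where both the RNA and the neighbour were called, it was the same in 19 pairs and opposite in 7 at week 1. At week 4 it was the same in 22 such pairs and opposite in 9. Between week 4 and week 1, r was 0.19 and rho 0.05 over 68 pairs, of which 36 had the same direction. How often genes that are not neighbours share a direction was not measured. Without a stated strand setting, reads of overlapping genes on opposite strands cannot be told apart.

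LINC00973 and LINC02593, with the largest rise and fall at week 1 among the RNAs at the floor in both groups, had nearest coding genes that moved the same way. DCBLD2, a membrane receptor gene nearest to LINC00973, averaged 319, 911 and 942 CPM at weeks 0, 1 and 4, at log2 fold changes of 1.51 and 1.56 against week 0 (adjusted p = 3.65e-17 and 2.41e-17). It was not called between week 4 and week 1 (log2 0.05, adjusted p = 0.526), while LINC00973 was lower at week 4 than at week 1. SAMD11, nearest to LINC02593, averaged 49.6, 3.30 and 19.3 CPM, and so fell and came partly back like its neighbour, at log2 fold changes of -3.91 and -1.36 against week 0 (adjusted p = 1.25e-21 and 1.58e-13). LINC01128 has SAMD11 as its nearest coding gene too, and moved by 0.05 at week 1.

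FOXF1, the coding gene nearest to LINC01081, averaged 247, 113 and 140 CPM at weeks 0, 1 and 4, lower at both times (log2 -1.13 and -0.82 against week 0, adjusted p = 5e-17 and 3.72e-14). GPCPD1, nearest to LINC00654, averaged 38.1, 19.2 and 21.2 CPM, with log2 fold changes of -0.99 and -0.85 against week 0, close to the -0.95 and -0.87 of the LINC RNA. POFUT2, which adds fucose to secreted proteins, is the coding gene nearest to LINC00205 and rose by 0.77 and 0.49 on the log2 scale. ZNF703, nearest to LINC01605, rose by 0.81 and 0.76. Other pairs moved apart. SLC39A11, a zinc transporter gene nearest to LINC00511, rose by 0.67 and 0.48 where LINC00511 fell. PENK, which encodes an opioid precursor, was scarce, at 1.31, 0.424 and 0.692 CPM at weeks 0, 1 and 4. It fell by 1.63 and 0.92, and LINC00968, to which it is nearest, rose.

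**Figure D5:**
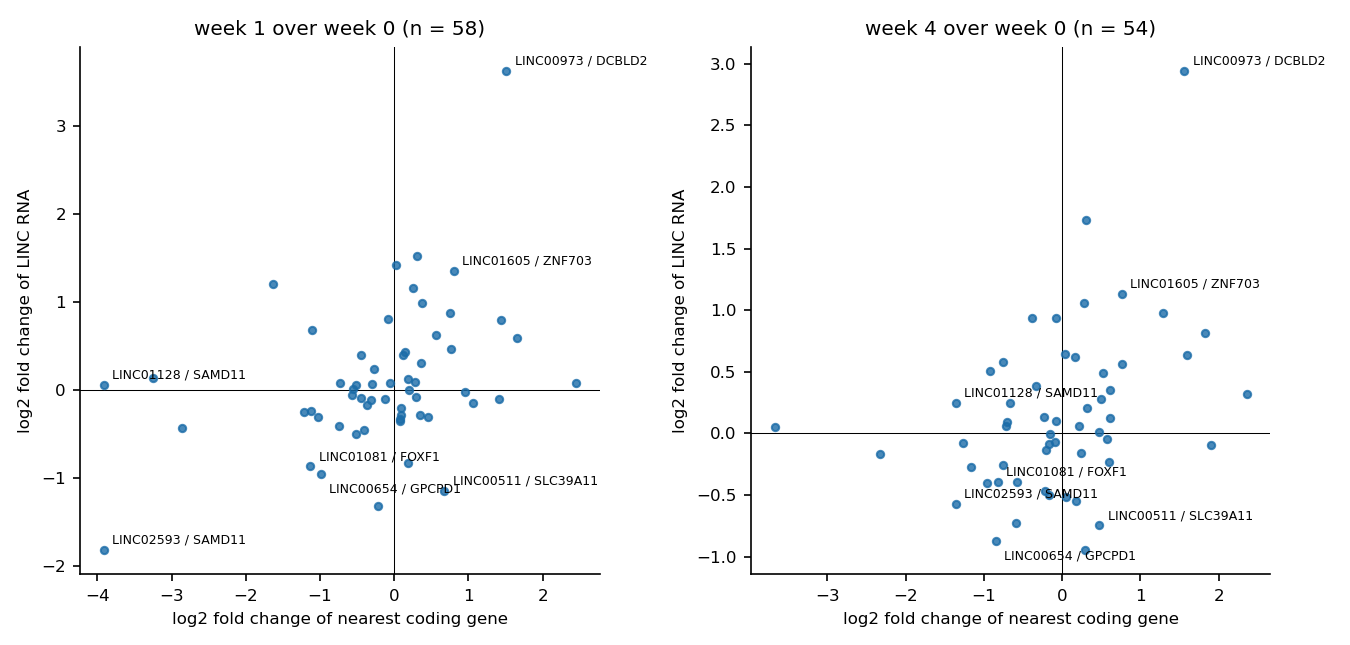
Log2 fold change of each numbered LINC RNA (vertical axis) against that of its nearest named coding gene in RefSeq (horizontal axis), for week 1 over week 0 (n = 58) and week 4 over week 0 (n = 54). LINC00973 with DCBLD2 lies far up to the right and LINC02593 with SAMD11 to the lower left, while LINC00511 with SLC39A11 and LINC01128 with SAMD11 lie off that direction.

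Long noncoding RNAs that have a name of their own formed a list of 40, of which 34 were tested. At week 1 against week 0, 14 were called higher and 11 lower, at week 4 against week 0, 13 and 11, and at week 4 against week 1, 8 and 7. Those are 73.5%, 70.6% and 44.1% of the list, near the 66.6%, 67.3% and 40.1% called among all tested genes. PURPL, an RNA induced by p53, averaged 0.107, 2.38 and 4.17 CPM at weeks 0, 1 and 4, and so went on rising where LINC00973 receded (log2 0.81 ± 0.19 for week 4 against week 1, adjusted p = 0.00142). FENDRR, which is transcribed beside FOXF1, averaged 261, 82.6 and 117 CPM and fell with it, at log2 fold changes of -1.66 ± 0.05 and -1.16 ± 0.05 against week 0 (adjusted p = 4.29e-19 and 5.02e-16). LINC-PINT, a p53-induced RNA outside the numbered series, averaged 12.8, 22.3 and 9.69 CPM, higher at week 1 and lower at week 4 than at week 0 (0.79 ± 0.07 and -0.41 ± 0.07, adjusted p = 1.07e-09 and 3.9e-05), an order of groups like that of LINC00886.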

How the data were processed

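RNA-seq libraries of 17 IMR-90 samples were grouped by title and treatment label. The authors deposited raw gene counts by symbol, one file per library. The submitters' processing notes name HISAT2 2.0.5.2, featureCounts 1.4.6 and, although the symbols are human, the mouse build mm10, so the build is unclear. Which annotation and strand setting were used, and how multiply mapped reads were handled, is not given in the sources used here. The entry without a gene name (0.221% to 0.289% of counts) was left out, and no pair of replicates was within sampling noise (chi-square per gene at least 7.24).

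Tests ran in edgeR 4.0.16 (R 4.3.3), with filterByExpr, TMM (factors 0.938 to 1.11) and a robust quasi-likelihood fit with a mean per group over all libraries. Benjamini-Hochberg adjustment covered all 16891 genes, with calls under 0.05. The SE is the log2 fold change over the square root of F. CPM are given as mean and SD over libraries. RNAs were named as the 8 most abundant, the 6 largest called changes each way per comparison, the 8 highest of those at the floor in some groups only, those at the edge of the floor, and a fixed set. LINC00473 and others of that set were not among the 105. RNAs and genes outside this rule are context. The members, lists and tests were chosen with earlier results of these data known. Alternatives included DESeq2 1.42.0 and limma 3.58.1 (voom). The test was checked on simulated counts. The RefSeq promoter and gene tables are of GRCh38.p14.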

Additional observations from a re-analysis of the deposited data

Results flagged for a closer look

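A library stood apart from the others of its group in 7 of 123 group values examined by Dixon's test, where chance gives about 1 in 20. Week 4 replicate 6 was the high library in 3 of them. It had 17.1 CPM of LINC00963, against 13.9 to 14.9 CPM in the other week 4 libraries, and 1.53 CPM of LINC01410, against 0.854 to 1.09 CPM. Its share of counts on numbered LINC rows was 0.0575%, against 0.0538% to 0.0550%. Week 4 replicate 1 was low in LINC02035, at 6.49 CPM against 7.70 to 8.16 CPM. Week 1 replicate 3 was high in LINC02693, at 52.0 CPM against 49.1 CPM to 50 CPM. Week 0 replicate 5 was high in LINC00667, at 27.7 CPM against 25.8 to 26.2 CPM, and week 0 replicate 1 was low in LINC01293, at 0.283 CPM against 0.458 to 0.520 CPM. None of the 3 calls named for LINC00963, LINC02035 and LINC01410 against week 0 at week 4 was lost when the library in question was left out.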

How the results depend on the processing

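For 55 named RNA and comparison pairs, 29 other settings gave 1573 values, since 22 pairs were not tested under the stricter filter. None of these values changed direction, 1509 stayed on their side of the threshold and 64 no longer passed it, of which 46 arose where a change of over 2-fold was required. Counts are given as called, higher and lower. At week 1 against week 0 (39, 19 and 20), a stricter filter of 5 CPM in 5 libraries gave 17, 9 and 8, the 2-fold minimum 6, 4 and 2, a floor of 2 CPM 22, 9 and 13, a floor of 0.5 CPM 33 higher, and all 105 RNAs 67 called and 39 higher. At week 4 against week 0 (41, 23 and 18), the stricter filter gave 21, 13 and 8, the 2-fold minimum 2, 2 and 0, a floor of 2 CPM 26 called and 13 higher, a floor of 0.5 CPM 65, 37 and 28, all 105 RNAs 72, 43 and 29, and no scaling factors 15 higher. At week 4 against week 1 (28, 14 and 14), the stricter filter gave 12, 7 and 5, the 2-fold minimum 1, 0 and 1, a floor of 2 CPM 15, 6 and 9, and leaving out week 0 replicates 1 and 4 gave 22 higher. The stricter filter and the floors change which RNAs are counted, and counts over all 105 hold RNAs whose choice fixed a difference. Over all genes, the stricter filter called 3930 higher and 4270 lower, 3984 and 4260, and 2972 and 2621 of 10450, in the order above. The 2-fold minimum called 1232 higher and 965 lower, 1269 and 717, and 132 and 18 of 16891. Shares over all genes at the floors of 2 and 0.5 CPM were not computed. With each library left out in turn, calls ran from 34 to 40 (16 to 21 higher, 16 to 20 lower), 39 to 44 (23 to 25, 15 to 20) and 25 to 32 (13 to 18, 11 to 15). The difference in the share of counts ran from -0.000725 to 0.000495, -0.00184 to -0.000623 and -0.00166 to -0.000697 percentage points. On TMM-scaled sizes it was 0.00608 and 0.00615 percentage points against week 0, the other direction, by construction of the scaling. Replicate numbers did not pair the libraries (same-number correlations of deviations from -0.04 to 0.07), and a replicate block gave 38, 40 and 27 calls. Over all 16891 genes the block called 5493 higher and 5534 lower, 5633 and 5519, and 3621 and 3037. In the 13 libraries without a deposited gene length, LINC01128 at week 4 against week 1 and LINC00641 at week 1 against week 0 lost their calls (adjusted p = 0.0786 and 0.085). The setting without scaling factors was chosen after seeing the data. Counts near 1 CPM limit the precision of the scarce RNAs.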
